A study of Mus musculus with 18 samples.

Results

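Autosomal long noncoding RNAs (lncRNAs) were examined in cells of the hippocampus from mice with and without *Fibcd1* that had been plated on chondroitin sulphate proteoglycans (CSPGs). The genes were taken from the deposited table by their annotated type (lincRNA, antisense, processed_transcript, sense_intronic, sense_overlapping, bidirectional_promoter_lncRNA or macro_lncRNA). The 9 such genes on chromosomes X and Y and 6 imprinted ones named by the rule were left out, which gave 227 genes of the 12012 in the table. All 227 had already passed the filter on low values that was applied before the table was deposited. WT_CSPG cultures carried an intact *Fibcd1* gene, KO_CSPG cultures carried the *Fibcd1* tm1Lex knockout allele on C57BL/6J, and both came from E18.5 hippocampus and were grown on the same CSPG coating, with no other allele or agent named. A replicate is a preparation of cells, the sex of the embryos is not given, and the labels call the cells neurons. The series has 18 samples, and the table holds 4 WT_CSPG and 4 KO_CSPG libraries with the replicate letters A to D. The other 10 samples were not analysed here. They are all of the WT and KO groups, which had no CSPG coating, and WT_CSPG replicate E, for which the table holds no values. An effect of genotype that depends on CSPGs and one that does not cannot be told apart.

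FIBCD1 is a transmembrane receptor of the fibrinogen domain family that binds chondroitin sulphate, and CSPGs are a major part of the extracellular matrix of the brain. LncRNAs are transcripts that are not known to be translated and act, where a function is known, as the precursors of small RNAs, as parts of nuclear bodies or as regulators of neighbouring genes. Some are little more than carriers: the introns of small nucleolar RNA (snoRNA) host genes are processed to snoRNAs, many but not all of which guide the modification of ribosomal RNA, and microRNA (miRNA) host genes are cut to hairpins from which the mature miRNAs are made. In the developing hippocampus, miR-9 and miR-124 are known regulators of neurogenesis, and several lncRNAs are transcribed beside the genes of transcription factors that pattern the forebrain.

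Of the 227 autosomal lncRNAs, 101 were annotated as lincRNA, 62 as processed_transcript, 51 as antisense, 7 as sense_intronic, 4 as bidirectional_promoter_lncRNA and 2 as sense_overlapping. They lay on all 19 autosomes, with the largest numbers on chromosomes 7 and 11 (24 each) and 2 (21). In GENCODE M21 on GRCm38, 224 of their identifiers were found and 210 had the same coordinates. A total of 95 overlapped another gene of the table and 132 overlapped none. The kit and counting are not stated to use strand, so reads from a lncRNA and from a gene that overlaps it cannot be told apart. The annotated type is not a proof of function: 3 of the genes, among them *6330403K07Rik*, are protein_coding in GENCODE M21, and *Cct6a*, the symbol of a chaperonin subunit, is a processed_transcript in both the table and GENCODE M21. It is not the only such case. *Ptpmt1*, *Tctn2*, *Tmem134* and *Trerf1*, named here only for symbols that do not mark a lncRNA, are also among the 227 and are processed_transcript in GENCODE M21.

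The RefSeq set used here places 30 miRNA hairpins inside 16 of these lncRNAs on the same strand. It has no entry for miR-124, so the miR-124 hosts *Mir124-2hg* and *Mir124a-1hg* are not among the 16. The mature sequences shown are from some of the hosts named below, none of which was called. They are as given by RefSeq on GRCm38.p6, 5′ to 3′, with the seed (bases 2 to 8), which selects target transcripts, in capitals. The first pair comes from the miR-9 hairpins, which lie in an intron of *Mir9-3hg* (miR-9-5p at chr7:79505279-79505301, plus strand) and of *Gm3764* (chr3:88215613-88215635, plus strand) and in an exon of *C130071C03Rik* (chr13:83738821-83738843, plus strand), so that all 3 hosts carry the same mature miRNAs.
miR-9-5p: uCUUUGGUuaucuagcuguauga
miR-9-3p: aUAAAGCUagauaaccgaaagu

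The next set comes from introns of *Mir99ahg* on chromosome 16 and of *2610203C20Rik* on chromosome 9. The miR-99a and miR-100 sequences share a seed, and both hosts carry a copy of miR-125b.
miR-99a-5p (*Mir99ahg*): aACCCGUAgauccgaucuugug
miR-100-5p (*2610203C20Rik*): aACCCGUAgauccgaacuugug
let-7c-5p (*Mir99ahg*): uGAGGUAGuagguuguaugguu
miR-125b-5p (both hosts): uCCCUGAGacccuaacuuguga

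The last set comes from hosts of clustered or paired miRNAs. *Mir17hg* carries its hairpins in an exon on chromosome 14, where miR-17 and miR-20a share one seed and miR-19a and miR-19b another. *Dleu2* on chromosome 14 carries miR-15a and miR-16, and *A330023F24Rik* on chromosome 1 carries miR-29b and miR-29c, each a pair with a shared seed.
miR-17-5p: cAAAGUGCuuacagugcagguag
miR-20a-5p: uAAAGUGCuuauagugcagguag
miR-19a-3p: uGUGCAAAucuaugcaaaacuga
miR-19b-3p: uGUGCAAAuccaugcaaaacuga
miR-15a-5p: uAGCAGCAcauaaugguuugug
miR-16-5p: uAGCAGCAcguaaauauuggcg
miR-29b-3p: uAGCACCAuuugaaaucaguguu
miR-29c-3p: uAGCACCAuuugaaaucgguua

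The libraries held 10099564 to 11174615 reads over the genes of the table in WT_CSPG and 10541445 to 11647202 in KO_CSPG. *Fibcd1* had 52, 65, 62 and 179 reads in WT_CSPG A to D and 1, 1, 7 and 5 in KO_CSPG A to D, and its values fit the labels in every library. Several markers moved with genotype beside the lncRNAs. The summed values of 4 Y-linked genes were 1557 to 1935 in WT_CSPG and 878 to 1092 in KO_CSPG, and *Xist*, the X-linked lncRNA that silences one X chromosome in female cells, rose from 4596 ± 493 to 7339 ± 828 (SD, n = 4; limma, adjusted p = 0.0367). Of the 9 oligodendrocyte lineage markers, *Olig1* and *Olig2* rose, and the sum of the 9 was 1326 to 1715 in WT_CSPG and 1975 to 2178 in KO_CSPG. Of 12 neuronal markers, all in the table, *Prox1* rose and *Neurod2* and *Neurod6* fell, and the sum was 87635 to 93530 and 86770 to 89591. The sums of the 9 astrocyte markers (39691 to 48540 and 46171 to 51189), of 7 microglia markers (1802 to 2072 and 1921 to 2335, with *Fcrls* higher), of 10 GABAergic interneuron markers (6499 to 7854 and 7209 to 8295), of 7 proliferation markers (1862 to 2066 and 1938 to 2105), of 5 choroid plexus markers (250 to 4295 and 321 to 655), of 3 fibroblast markers (67.9 to 467 and 101 to 775) and of the 1 endothelial marker in the table (47.5 to 82.5 and 36.8 to 54.1) overlapped between the groups. The part of sex and of cell composition in the values below was not tested beyond a fit with the Y-linked sum as a covariate. Genotype explained 91.2% of the variance of this covariate, so that the fit cannot separate them well and its values are imprecise. In these bulk samples, fewer cells of a type and less RNA per cell cannot be told apart.

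LncRNAs had low levels in these libraries, which were made from poly-A RNA. A value is a normalized count: the reads of a gene, scaled by the size factor of the library. The median lncRNA had a mean value of 90.8 normalized counts over the 8 libraries, against 436 for the 11271 autosomal protein-coding genes. Per kilobase of gene model, the medians were 34.4 and 98.1. The fewest reads on any lncRNA in a library, not the same gene in each, were 22 to 35, so that counting error is large for such values. The median residual SD within groups was 0.147 on the log2 scale for lncRNAs and 0.082 for protein-coding genes. It fell with the level. Between the lowest and highest quartiles of mean value it went from 0.187 to 0.067 for lncRNAs. For protein-coding genes it went from 0.163 to 0.049. In each quartile it was higher for lncRNAs, and levels were not matched within quartiles.

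**Figure D1:**
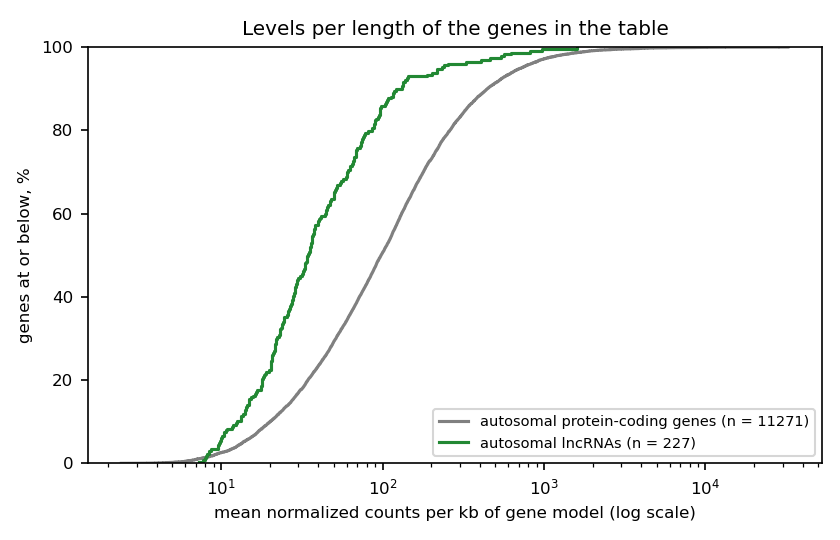
Cumulative share of genes (vertical axis, %) by mean normalized counts per kilobase of gene model over 8 libraries (horizontal axis, log scale), for 227 autosomal lncRNAs and 11271 autosomal protein-coding genes. The lncRNA curve lies to the left, with a median of 34.4 against 98.1.

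A few lncRNAs held much of the signal. *1700020I14Rik*, the transcript also known as Cyrano, had the highest mean value at 6775 normalized counts, followed by *Cct6a* (5757), *Miat* (5042), *Malat1* (3256) and *C130071C03Rik* (2323). These 5 held 36.1% to 37.2% of the summed lncRNA values in every library. Per kilobase, the order was *Cct6a* (1590), *6330403K07Rik* (978), *1700020I14Rik* (816), *2410006H16Rik* (628), *Gm17750* (569), *Miat* (543) and *Malat1* (466). Among these, *6330403K07Rik*, *2410006H16Rik* and *Gm17750* were named after their values had been seen. As given above, *Cct6a* bears the symbol of a chaperonin subunit and *6330403K07Rik* is protein_coding in GENCODE M21. Shares without *Cct6a* were not computed.

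All lncRNAs together took 0.577%, 0.561%, 0.576% and 0.580% of the reads of the table in WT_CSPG A to D and 0.588%, 0.583%, 0.588% and 0.596% in KO_CSPG A to D. The exact 95% binomial interval of the lowest share, in WT_CSPG B, was 0.557% to 0.566%, and that of the highest, in KO_CSPG D, was 0.592% to 0.601%. Such intervals cover counting error only. All KO_CSPG libraries lay above all WT_CSPG libraries, with WT_CSPG B lowest and the gap between WT_CSPG D and KO_CSPG B within counting error. The group means were 0.574% ± 0.00830 and 0.589% ± 0.00549 (SD, n = 4), a difference of 0.0153 percentage points, which was not tested because the genes had been chosen with results of these data known. The difference was 0.0163 without *Malat1*, 0.0125 without the listed snoRNA host genes and 0.0112 to 0.0174 when 1 library was left out.

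**Figure D2:**
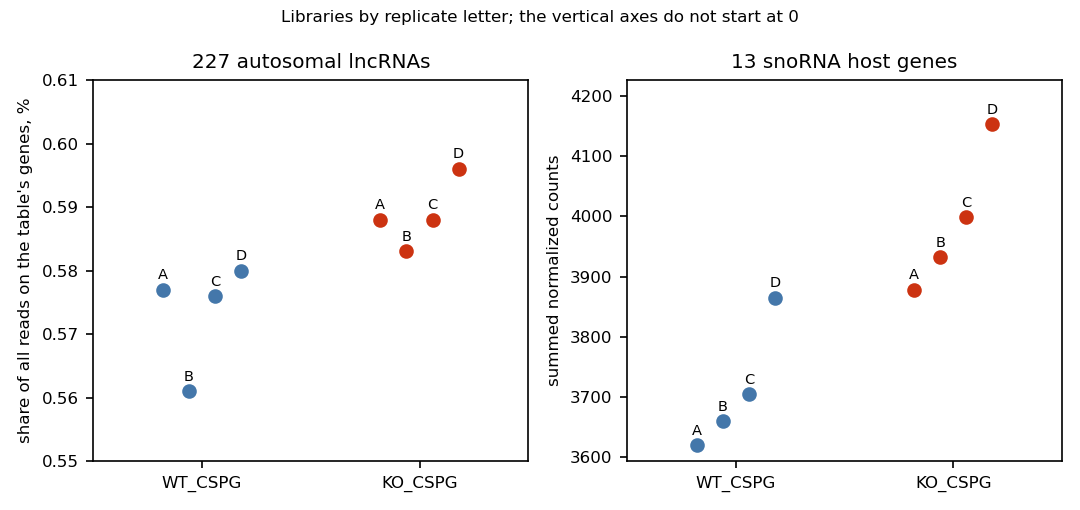
Share of all reads in the 227 autosomal lncRNAs (left, %) and summed normalized counts of 13 snoRNA host genes (right) in each library, marked by its replicate letter; the vertical axes do not start at 0. KO_CSPG libraries lie above WT_CSPG libraries in both panels, with a narrow gap below KO_CSPG B on the left and between WT_CSPG D (3865) and KO_CSPG A (3878) on the right.

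The question of the main comparison was whether loss of *Fibcd1* altered the lncRNAs of cultures on CSPGs. Only 1 of the 227 autosomal lncRNAs (0.441%) passed limma's test at an adjusted p under 0.05, and it was higher in KO_CSPG. Of all 12012 genes, 346 passed (2.88%), 1.09% higher and 1.79% lower in KO_CSPG. At an unadjusted p under 0.05 there were 23 lncRNAs (10.1%), 19 higher and 4 lower in KO_CSPG, where all genes gave 16.2%, 7.51% higher and 8.67% lower. The groups did not overlap for 16 lncRNAs (7.05%), 13 with KO_CSPG above and 3 with KO_CSPG below, where all genes gave 9.22%, of which 4.05% had KO_CSPG above and 5.17% below. The log2 fold change of KO_CSPG over WT_CSPG was above 0 for 140 lncRNAs (61.7%) and for 50.1% of all genes, and its median was 0.02 and 0.00. The 5th and 95th percentiles of the lncRNAs were -0.19 and 0.26.

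The levels of the lncRNAs are set beside these counts, and the part of level in them was not tested. Of the 227, 203 (89.4%) were in the lower 2 quartiles of mean value, where 1.38% and 1.98% of protein-coding genes were called, against 3.78% and 4.27% in the upper 2. At the rate of protein-coding genes in the same quartiles, 4.04 lncRNAs would have been called, beside the 1 that was. The median lncRNA needed a log2 fold change of 0.43 in either direction to be called, against 0.22 for a protein-coding gene. By quartile of mean value, from the lowest up, the median lncRNA needed 0.49, 0.27, 0.20 and 0.15, so that smaller differences could be called in the more abundant lncRNAs. The median protein-coding gene needed 0.43, 0.26, 0.18 and 0.13 in the same quartiles.

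By annotated type, the share with a log2 fold change above 0 was 60.4% for 101 lincRNAs (median 0.02), 68.6% for 51 antisense genes (median 0.06) and 58.1% for 62 processed transcripts (median 0.02). The 95 lncRNAs that overlapped another gene of the table had a median log2 fold change of 0.03, with 64.2% above 0, and the 132 that overlapped none had a median of 0.02, with 59.8% above 0. The difference between these kinds was not tested. Only a lincRNA was called.

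**Figure D3:**
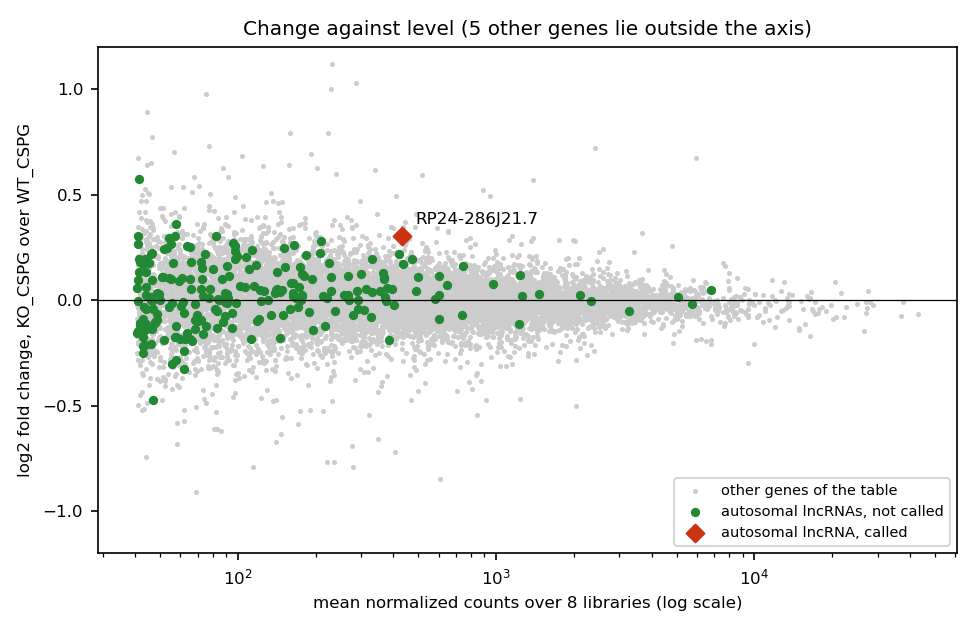
Log2 fold change of KO_CSPG over WT_CSPG (vertical axis) against mean normalized counts over 8 libraries (horizontal axis, log scale) for each gene of the table; 5 other genes lie outside the axis. Autosomal lncRNAs lie mostly at low values and around 0, and the diamond marks *RP24-286J21.7*, which was called at 0.30.

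*RP24-286J21.7* (ENSMUSG00000110631, *Gm42047* in GENCODE M21) was the lncRNA that rose. It is a lincRNA without a known function, on the plus strand at chr8:121833247-121841178 (GRCm38). Its normalized counts were 396, 340, 449 and 373 in WT_CSPG A to D and 465, 507, 479 and 464 in KO_CSPG A to D. The groups did not overlap, with WT_CSPG C, the highest of its group, just under the KO_CSPG libraries. The means were 390 ± 45.8 and 479 ± 20.2 (SD, n = 4), a log2 fold change of 0.30 (SE 0.07, 95% interval 0.16 to 0.44; limma, adjusted p = 0.0131). Without KO_CSPG B, the highest library, the value was 0.28 with an adjusted p of 0.0508 from limma, so that the call rested on this library. With the Y-linked sum as a covariate, it was 0.44 with an adjusted p of 0.757 from limma. It kept its call in 14 of 17 alternative fits, over which the adjusted p from limma ran from 0.00130 to 0.757.

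Reads of *RP24-286J21.7* are uncertain. Of its 5596 windows of 50 bases, the length of a read, 35.2% occurred in no other annotated gene, while the median over the lncRNAs was 100% once overlapping neighbours were set aside. It shared windows with 10 other genes, such as the lincRNAs *Gm47939* on chromosome 10 (32.0% of windows), *Gm43549* on chromosome 3 (31.9%) and *Gm48362* on chromosome 9 (30.2%). It was the only 1 of 224 lncRNAs with transcripts in GENCODE M21 that had fewer than 50% of its windows to itself in this sense. How reads with several matches were counted is not given in the sources used here, so its reads and those of these copies cannot be told apart.

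The gene of the table nearest to *RP24-286J21.7* is *Klhdc4*, a kelch domain gene on the opposite strand, 3678 bases away. *Klhdc4* had 378 ± 31.5 normalized counts in WT_CSPG and 378 ± 23.7 in KO_CSPG (SD, n = 4), a log2 fold change of 0.00 (95% interval -0.13 to 0.14; limma, adjusted p = 0.993). *Slc7a5*, an amino acid transporter gene farther along chromosome 8 that was looked up after its value had been seen, fell from 2010 ± 80.0 to 1730 ± 87.5 (log2 fold change -0.22; limma, adjusted p = 0.00165), opposite in sign to the lncRNA.

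The next 6 lncRNAs by p lay just outside the threshold, and 5 of them had log2 fold changes above 0. *4933404O12Rik*, a lincRNA on chromosome 5 without a known function, had 212, 183, 173 and 189 normalized counts in WT_CSPG and 232, 241, 232 and 212 in KO_CSPG. WT_CSPG A and KO_CSPG D met at 212, with the KO_CSPG library slightly higher before rounding. Its log2 fold change was 0.28 (limma, adjusted p = 0.0533).

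*1110015O18Rik*, a lincRNA on chromosome 3, had the highest log2 fold change of all 227 lncRNAs at 0.58 (95% interval 0.23 to 0.92; limma, adjusted p = 0.0622). Its values were low, at 31.3, 36.8, 35.9 and 28.5 normalized counts in WT_CSPG and 42.7, 60.6, 45.0 and 52.1 in KO_CSPG. The mean over the 8 libraries was 41.6, just above 40.7, the lowest mean of any gene in the table. The WT_CSPG mean of 33.1 was below 40.7 and the KO_CSPG mean of 50.1 above it. This lncRNA may thus have passed the filter only through KO_CSPG, and the size of its change is no support for a difference. KO_CSPG B stood highest and the groups did not overlap. The Y-linked covariate, which the fit cannot separate well from genotype, took the value to -0.14.

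*4933431E20Rik*, an antisense transcript that overlaps the glutathione transferase gene *Gstm5* on the opposite strand, had 424, 439, 447 and 457 normalized counts in WT_CSPG and 475, 488, 562 and 500 in KO_CSPG. All KO_CSPG libraries were higher, KO_CSPG C most of all, and the log2 fold change was 0.19 (limma, adjusted p = 0.0653). These 3 lncRNAs were named after their values had been seen, as were those of the next paragraph.

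Of the other lncRNAs whose groups did not overlap, *RP23-128C4.4* had 294 to 337 normalized counts in WT_CSPG and 342 to 367 in KO_CSPG (log2 fold change 0.20; limma, adjusted p = 0.0933). *Brip1os*, antisense to *Ints2* and *Med13*, had 387 to 438 and 441 to 495 (0.17; limma, adjusted p = 0.109). *4930570G19Rik* was one of the 3 with KO_CSPG below, at 61.1 to 79.5 and 46.0 to 58.8 (-0.33; limma, adjusted p = 0.223). None of these differences passed the test, and the gaps between the groups were small beside the spread within them.

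**Figure D4:**
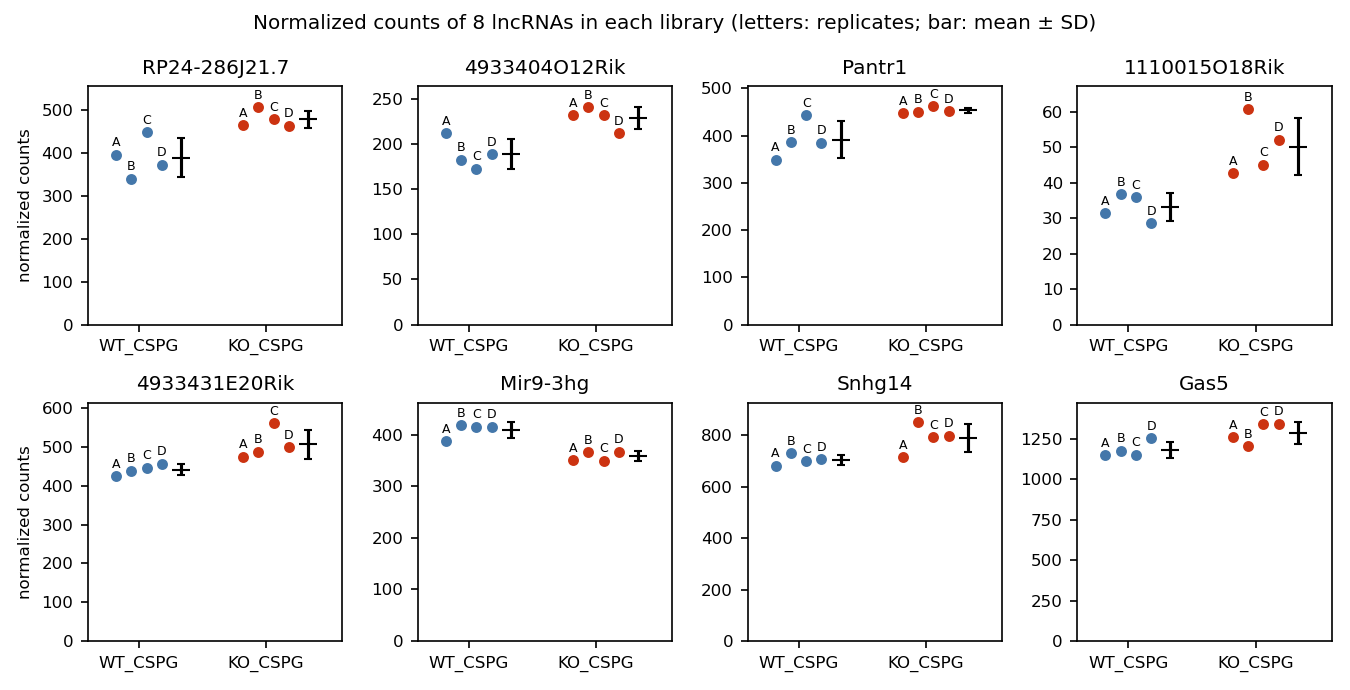
Normalized counts of 8 lncRNAs in each WT_CSPG and KO_CSPG library, marked by replicate letter, with the mean ± SD of each group (n = 4). *RP24-286J21.7* is the one called; *Mir9-3hg* is the one with all KO_CSPG libraries below all WT_CSPG libraries, and *Snhg14* and *Gas5* overlap between groups.

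SnoRNA host genes were the most uniform of the 4 lists by sign. Of 21 listed, 13 were in the table as autosomal lncRNAs, 0 were called by limma (3, *Gas5*, *Snhg14* and *Snhg4*, had an unadjusted p under 0.05), and all 13 had log2 fold changes above 0, from 0.01 for *Zfas1* to 0.25 for *Snhg4*, with a median of 0.11. Over all genes, 16.2% had an unadjusted p under 0.05 from limma and 50.1% a log2 fold change above 0. Over the 227 lncRNAs these shares were 10.1% and 61.7%. The summed values were 3620, 3660, 3704 and 3865 in WT_CSPG A to D and 3878, 3932, 3999 and 4153 in KO_CSPG A to D, so that the groups did not overlap but nearly touched at WT_CSPG D and KO_CSPG A. Abundant hosts weigh most in this sum: *Gas5* had means of 1182 in WT_CSPG and 1287 in KO_CSPG, and *Snhg14* 705 and 790. For the 8 hosts with a mean value of at least 100, the median log2 fold change was 0.05. The sign was above 0 for 8 of 13 with the Y-linked covariate, for 10 of 13 without KO_CSPG D, for 11 of 13 without WT_CSPG A and for 12 of 13 without WT_CSPG B, WT_CSPG C or KO_CSPG B, and it was above 0 for all 13 with upper-quartile scaling. By position, 18 lncRNAs contain an annotated snoRNA of the same strand, and of these 14 had log2 fold changes above 0 and 4 below, with a median of 0.04. The 4 below 0, among them *Cct6a* (-0.02), were not on the list. The uniform sign thus held for the list and not for all hosts by position. *Snhg20* is on the list, but no annotated snoRNA of its strand was found inside it.

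*Gas5* (growth arrest specific 5, chr1:161034422-161038539, plus strand), with 10 snoRNAs inside it, is a transcript known to accumulate when translation or growth is arrested. It had 1148, 1176, 1152 and 1252 normalized counts in WT_CSPG and 1259, 1205, 1339 and 1344 in KO_CSPG. KO_CSPG B lay below WT_CSPG D, so the groups overlapped. The means were 1182 ± 48.4 and 1287 ± 67.3 (SD, n = 4), with a log2 fold change of 0.12 (95% interval 0.03 to 0.21; limma, adjusted p = 0.127), and without WT_CSPG D the adjusted p from limma was 0.0470, the lowest of 17 alternative fits that reached 0.793.

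*Snhg14* lies on the minus strand of chromosome 7 and holds 208 of the 255 annotated snoRNAs found inside these lncRNAs. It is the long transcript of the Prader-Willi and Angelman region, known to be made from the paternal allele and to silence *Ube3a* in neurons, and the rule did not count it among the imprinted genes. Its values were 682, 730, 700 and 709 in WT_CSPG and 716, 851, 794 and 799 in KO_CSPG. KO_CSPG A fell within the range of WT_CSPG and the other three KO_CSPG libraries lay above it. The log2 fold change was 0.16 (95% interval 0.06 to 0.26; limma, adjusted p = 0.0810), and it was -0.18 with the Y-linked covariate. *Ube3a*, a ubiquitin ligase gene that it overlaps on the opposite strand, had a log2 fold change of -0.02 (limma, adjusted p = 0.808).

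*Snhg4*, on chromosome 18, had 89.0 ± 14.4 and 106 ± 11.2 normalized counts (SD, n = 4; log2 fold change 0.25, 95% interval 0.00 to 0.51; limma, adjusted p = 0.302), and its groups overlapped. *Snhg1*, with 8 snoRNAs inside it, had means of 265 ± 24.4 and 268 ± 5.19 normalized counts (log2 fold change 0.02). *Epb41l4aos* (0.22), *Snhg20* (0.16), *Snhg15* (0.13), *Snhg12* (0.11), *Snhg8* (0.08), *Snhg5* (0.06), *Snhg17* (0.04), *Snhg6* (0.02) and *Zfas1* (0.01) had 95% intervals that included 0. Among hosts found by position alone and named after their values were seen, *2410006H16Rik* had 0.04 and *1110038B12Rik* -0.05. *Epb41l4a*, the coding gene 341 bases from *Epb41l4aos* on the opposite strand, fell with a log2 fold change of -0.21 (limma, adjusted p = 0.0105), and *Znfx1*, which overlaps *Zfas1* on the opposite strand, fell with -0.20 (limma, adjusted p = 0.0271).

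Of 14 listed miRNA host genes, 10 were in the table as autosomal lncRNAs. None was called by limma (2, *Mir9-3hg* and *Mir124-2hg*, had an unadjusted p under 0.05, beside 16.2% of all genes), 5 had log2 fold changes above 0 and 5 below, beside 50.1% of all genes and 61.7% of all lncRNAs above 0, and the median was -0.00. Host transcripts were measured here, and mature miRNAs were not.

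*Mir9-3hg* (chr7:79500026-79534403, plus strand) was the host with the smallest p. It had 387, 419, 416 and 416 normalized counts in WT_CSPG and 351, 366, 350 and 367 in KO_CSPG. All KO_CSPG libraries were below all WT_CSPG libraries, with WT_CSPG A the lowest of its group. The means were 409 ± 15.3 and 358 ± 9.45 (SD, n = 4), with a log2 fold change of -0.19 (SE 0.06, 95% interval -0.31 to -0.07; limma, adjusted p = 0.0663). It was not called in any of 17 alternative fits, in which it ran from -0.36 to -0.18.

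The other hosts of the same mature miR-9 had higher levels and values near 0. *C130071C03Rik* had 2329 ± 104 normalized counts in WT_CSPG and 2317 ± 44.1 in KO_CSPG (SD, n = 4), a log2 fold change of -0.01 (95% interval -0.08 to 0.07; limma, adjusted p = 0.955). *Gm3764*, found by position and named after its values were seen, had 1257 ± 46.9 and 1274 ± 84.6 (0.02, 95% interval -0.07 to 0.11; limma, adjusted p = 0.897). *Mir9-3hg* had the lowest level of the 3 hosts per kilobase of gene model, at 88.0 normalized counts, against 218 for *Gm3764* and 410 for *C130071C03Rik*.

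*Mir124-2hg* and *Mir124a-1hg* are hosts of miR-124, a neuronal miRNA that represses nonneuronal transcripts. *Mir124-2hg* had 139, 160, 138 and 161 normalized counts in WT_CSPG and 180, 204, 161 and 173 in KO_CSPG, with KO_CSPG C level with the top of WT_CSPG (log2 fold change 0.26, 95% interval 0.07 to 0.45; limma, adjusted p = 0.133). *Mir124a-1hg* was more abundant, with 971, 832, 995 and 982 in WT_CSPG and 968, 955, 976 and 1088 in KO_CSPG (0.08, 95% interval -0.04 to 0.19; limma, adjusted p = 0.534). The groups overlapped for both.

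For the hosts of the miR-99/100, let-7 and miR-125b clusters, *Mir99ahg* had 222 ± 28.7 and 223 ± 17.4 normalized counts (log2 fold change 0.01, 95% interval -0.17 to 0.19; limma, adjusted p = 0.973). *2610203C20Rik*, named after its values were seen, had 1275 ± 85.9 and 1179 ± 37.0 (-0.11, 95% interval -0.20 to -0.02; limma, adjusted p = 0.192). WT_CSPG A was the highest library of *2610203C20Rik* at 1383, and the other WT_CSPG libraries, at 1198 to 1304, overlapped the KO_CSPG range of 1138 to 1222.

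The remaining hosts had log2 fold changes whose 95% intervals included 0. These were *Mir17hg* (0.00, interval -0.34 to 0.34), *Dleu2* (-0.10), *A330023F24Rik* (-0.07), *Mir22hg* (-0.12) and *Mir670hg* (0.10). *Mir17hg* would have needed a log2 fold change of 0.59 in either direction to be called and *A330023F24Rik* 0.43.

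Nuclear and scaffold lncRNAs, of which 6 of 10 listed were in the table as autosomal lncRNAs, had values near 0: none was called by limma (0 of 6 also had an unadjusted p under 0.05, beside 16.2% of all genes), 4 had log2 fold changes above 0 and 2 below, beside 50.1% of all genes and 61.7% of all lncRNAs above 0, and the median was 0.02. *Malat1*, a transcript of nuclear speckles, had 3043, 2941, 3804 and 3505 normalized counts in WT_CSPG and 3433, 3220, 2956 and 3147 in KO_CSPG. The range of its WT_CSPG libraries enclosed all KO_CSPG libraries, and its log2 fold change was -0.05 (95% interval -0.28 to 0.17; limma, adjusted p = 0.851). *Neat1*, the scaffold of paraspeckles, had means of 760 ± 35.2 and 722 ± 29.9 (-0.07, 95% interval -0.17 to 0.02; limma, adjusted p = 0.489).

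*Miat*, a nuclear transcript abundant in neurons, had 5008 ± 225 and 5076 ± 550 normalized counts (SD, n = 4; log2 fold change 0.01, 95% interval -0.16 to 0.19; limma, adjusted p = 0.952), with KO_CSPG D highest at 5879. *1700020I14Rik*, which is known to direct the decay of miR-7, had 6657 ± 216 and 6893 ± 334 (0.05, 95% interval -0.02 to 0.12; not called). *Tug1* had 2100 ± 80.3 and 2133 ± 82.8 (0.02, 95% interval -0.05 to 0.10; limma, adjusted p = 0.833). The intervals of *1700020I14Rik* and *Tug1* were narrower than that of *Miat*. *Pvt1*, the neighbour of the *Myc* oncogene, had lower values, at 128 to 153 in WT_CSPG and 154 to 166 in KO_CSPG, with no overlap (0.16, 95% interval -0.02 to 0.34; limma, adjusted p = 0.390).

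**Figure D5:**
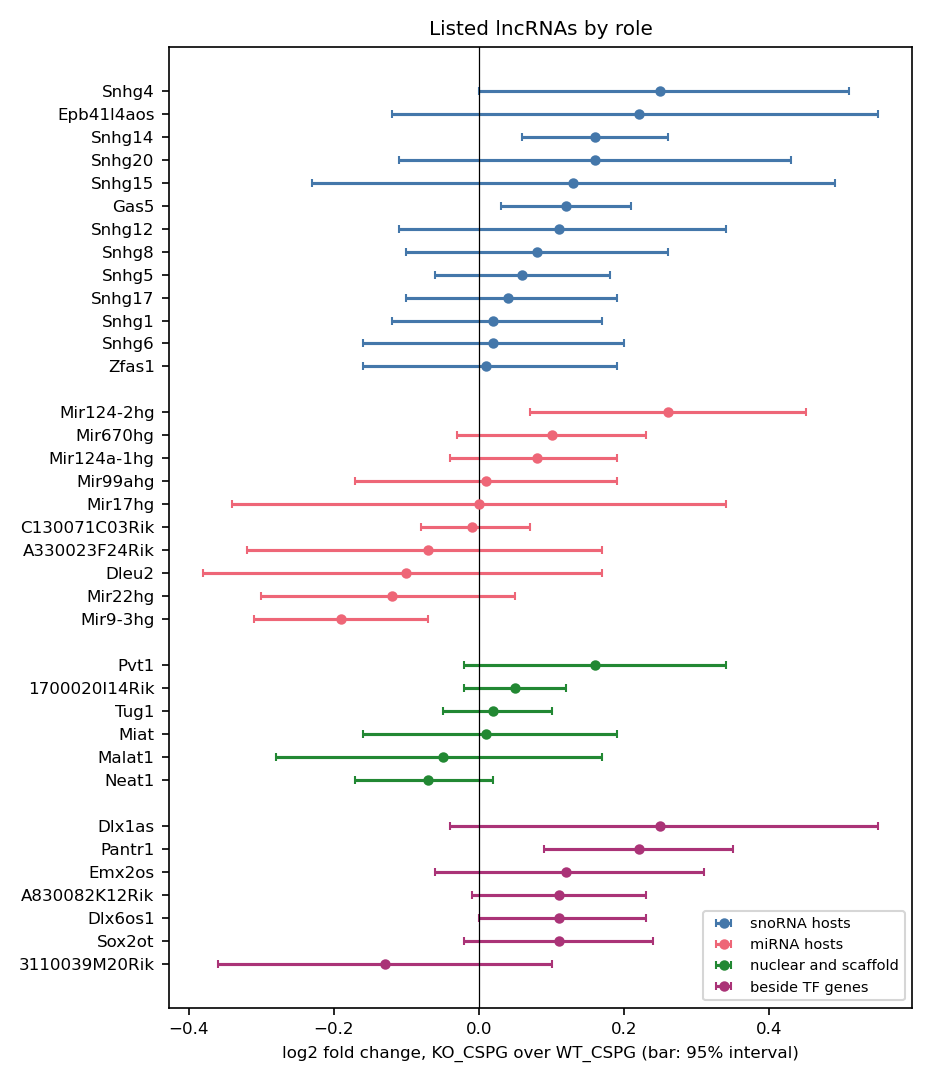
Log2 fold change of KO_CSPG over WT_CSPG with its 95% interval from limma (n = 4 in each group) for the 36 listed autosomal lncRNAs, coloured by role. The 13 snoRNA hosts are all above 0, the 10 miRNA hosts lie on both sides, and none of the 36 was called after adjustment.

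Of 27 listed lncRNAs beside genes of developmental transcription factors, 7 were in the table as autosomal lncRNAs. None was called by limma (1, *Pantr1*, had an unadjusted p under 0.05, beside 16.2% of all genes), 6 had log2 fold changes above 0 and 1 below, beside 50.1% of all genes and 61.7% of all lncRNAs above 0, and the median was 0.11. The summed values were 2035 to 2171 in WT_CSPG and 2277 to 2362 in KO_CSPG, which did not overlap. For this sum and that of the snoRNA host genes, how often sums of other sets of genes separate was not tested.

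*Pantr1* (chr1:42590782-42694842, minus strand) is transcribed away from *Pou3f3*, the gene of a POU factor of upper layer cortical neurons, whose nearest edge is 926 bases away. It had 349, 386, 444 and 385 normalized counts in WT_CSPG and 448, 451, 462 and 452 in KO_CSPG. The KO_CSPG libraries lay close together and above all WT_CSPG libraries, with WT_CSPG C only just below them. The means were 391 ± 39.4 and 453 ± 6.08 (SD, n = 4), a log2 fold change of 0.22 (SE 0.06, 95% interval 0.09 to 0.35; limma, adjusted p = 0.0575). *Pou3f3* had 2623 ± 79.7 and 2719 ± 72.6 (0.05, 95% interval -0.01 to 0.12; limma, adjusted p = 0.465).

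At the *Dlx* loci, whose homeobox genes specify GABAergic interneurons, *Dlx6os1* had 577 ± 43.0 and 624 ± 36.4 normalized counts (SD, n = 4; log2 fold change 0.11, limma, adjusted p = 0.320) and *Dlx1as* 59.9 ± 11.0 and 70.8 ± 5.79 (0.25; limma, adjusted p = 0.401). The coding genes had values below 0, at -0.02 for *Dlx1*, -0.13 for *Dlx2*, -0.18 for *Dlx5* and -0.14 for *Dlx6*. None of the 6 was called and all overlapped between the groups, so that a difference of the antisense genes from their partners was not shown.

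*Sox2ot* contains *Sox2*, the gene of a neural stem cell factor, within an intron of the same strand. It had a log2 fold change of 0.11 (limma, adjusted p = 0.401), beside 0.06 for *Sox2*. *Emx2os* had 0.12 (limma, adjusted p = 0.557), beside 0.03 for *Emx2*, a homeobox gene of the hippocampal field. *A830082K12Rik* had 0.11 (limma, adjusted p = 0.368), beside 0.01 for *Nr2f1*, a nuclear receptor gene that patterns the cortex.

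*3110039M20Rik*, a lincRNA on chromosome 12, was the 1 of the 7 with a value below 0. It had 89.9, 89.9, 83.4 and 85.6 normalized counts in WT_CSPG and 73.7, 83.0, 80.8 and 80.6 in KO_CSPG. All KO_CSPG libraries were lower, by little (-0.13, 95% interval -0.36 to 0.10; limma, adjusted p = 0.618).

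The fold changes of lncRNAs were set beside those of their neighbours. Over 107 pairs of a lncRNA and a gene of the table that overlapped it (92 lncRNAs), Pearson's r between the log2 fold changes was 0.03 and Spearman's rho 0.10. Over 108 pairs within 5 kb of each other without overlap (90 lncRNAs), they were 0.05 and 0.12. Both members of a pair were measured in the same 8 libraries, overlapping pairs may share reads, and some genes stand in several pairs. Among the neighbours, 2 of 107 overlapping and 2 of 105 near genes were called, beside 2.88% of all genes. Beside *Znfx1* and *Epb41l4a*, these were *Rgma*, a repulsive guidance molecule gene (-0.15), which overlaps *A730056A06Rik* (-0.12), and *Ankrd11*, a chromatin regulator gene (-0.13), 189 bases from *2810013P06Rik* (0.17). These 2 lncRNAs were named after their values were seen, and neither was called.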

How the data were processed

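The authors made NEBNext Ultra libraries from poly-A RNA of the cultures and read 50 bases from 1 end. The authors deposited a normalized signal, gene counts scaled by a size factor of the library, for 12012 genes with a mean value of at least 40.7; the labels name DESeq2 and mm10, and the aligner, counting program and strand setting are not given in the sources used here. The deposited table also holds the authors' own fold changes and p-values for the same comparison, which were not used. Of the per-sample columns, 0 were left unmapped. Each library's values were whole multiples of what 1 read is worth, which gave the reads; WT_CSPG libraries held 10099564 to 11174615 reads and KO_CSPG libraries 10541445 to 11647202. Pairs of libraries of a group had a chi-square per degree of freedom of 1.83 to 2.90, so none was a copy of another.

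Values were transformed to log2(value + 1), which understates the changes of low genes, and limma 3.58.1 (R 4.3.3; prior variance with trend, robust) was fitted to all 12012 genes, with Benjamini-Hochberg adjustment over them and calls at an adjusted p under 0.05. The fit was checked on simulated data. The 0-based starts of the table were raised by 1. Features were matched to GENCODE M21 and RefSeq on GRCm38. Genes were named if called, on 1 of 4 lists of lncRNA roles or among the 5 with the highest values; other names are marked. Members and lists were chosen with earlier results of these data known. The alternatives were 2 pseudocounts, 2 filters, upper-quartile scaling, 2 settings of the prior variance, a replicate block, a Y-linked covariate, each library left out, and 2 narrower definitions of lncRNAs. Library dates and litters are not given, so no batch was modelled.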

Additional observations from a re-analysis of the deposited data

Results flagged for a closer look

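Within the groups of 4 libraries, 10 values of named lncRNAs stood apart from the other 3 of their group by Dixon's test at its 95% critical value. A total of 110 groups were examined, in which chance alone would give about 5.50 had they been chosen without regard to their values. Some of these lncRNAs were named after their values had been seen, so the number is only a rough guide. KO_CSPG D was high for *Snhg4* (122 normalized counts, the others 98.9 to 103), *Snhg5* (410, the others 375 to 378) and *Mir124a-1hg* (1088, the others 955 to 976). WT_CSPG B was low for *Mir124a-1hg* (832, the others 971 to 995), *Mir17hg* (35.7, the others 54.3 to 56.0) and *Gm16973* (34.7, the others 69.0 to 74.7), a lncRNA named after its values were seen. WT_CSPG A was low for *Mir9-3hg* (387, the others 416 to 419) and *Gm3764* (1187, the others 1272 to 1288), both hosts of miR-9. KO_CSPG B was low for *Neat1* (678, the others 732 to 742), and KO_CSPG A was low for *B230216N24Rik* (21.3, the others 43.8 to 48.3), which had the lowest log2 fold change of the 227 lncRNAs at -0.47 (limma, adjusted p = 0.277) and -0.20 without that library. *B230216N24Rik* was also named after its values were seen. Its mean was 53.7 in WT_CSPG and 40.1 in KO_CSPG, the latter below 40.7, the lowest mean of any gene in the table. This lncRNA may thus have passed the filter only through WT_CSPG, and the size of its change is no support for a difference.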

How the results depend on the processing

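The number of autosomal lncRNAs called by limma was 1. It was 2 with a mean value of at least 100 (*4933404O12Rik* in addition), 4 with upper-quartile scaling (*Pantr1*, *4933431E20Rik* and *4933404O12Rik* in addition), 0 without a trend of the prior variance (80 genes called in all, adjusted p 0.149 for *RP24-286J21.7*) and 0 with the Y-linked covariate (2 genes called in all). When 1 library was left out it was 0 to 4: 0 without KO_CSPG B and 4 without WT_CSPG D, with *Gas5*, *4933431E20Rik* and *RP23-128C4.4* in addition; *Gm16973* was lower and called without WT_CSPG B (adjusted p = 0.0476 from limma, up to 0.787 in the other fits). The cause of these changes was not tested. It was 1 with either pseudocount, with no value under 10 in any library, with a prior that was not robust, with lincRNA and antisense genes only, and with lncRNAs that overlap no other gene. With the replicate letters as a block it was 4 (*Pantr1*, *4933431E20Rik* and *Snhg14* in addition, 429 genes called in all); the deviations of libraries with the same letter had correlations of -0.07, 0.10, 0.27 and -0.01 for A to D, not above 0.1 in every pair, and 4 of 8 libraries correlated best with their own letter, a hint from the data and not from the design. *Klhdc4* was not called in any of 17 fits. The number of lncRNAs above 0 ran from 122 without KO_CSPG D to 148 with upper-quartile scaling. Of 55 named lncRNAs, 23 changed sign with the Y-linked covariate, which cannot be separated well from genotype, and 0 to 8 in the other fits. The share of reads in lncRNAs kept its direction in the 10 alternatives, which were chosen after seeing the data.

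The planned fits with edgeR and DESeq2 on recovered reads were not run, so the dependence of the calls on a count model was not tested. With 4 libraries a group and values at a median of 90.8 normalized counts, differences under a log2 fold change of about 0.43 were not detectable for the median lncRNA.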
